A study of Mus musculus with 12 samples.

Results

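The genes described here are 10 genes known from the cerebellar cortex, read in bulk RNA of the dorsal raphe (DR), the serotonergic nucleus of the dorsal midbrain. They are Pcp2, Ppp1r17, Gdf10, Car8, Calb1, Itpr1, Cbln1, Cbln3, Zic1 and Zic2. They were chosen by name from the 24421 gene symbols of the files, with earlier results of these data known, and all 10 were found. All of them also passed the filter on low counts, which left 15453 genes for testing. The RNA came from 12 mice, 1 library per animal. Controls (n = 4, 2 females and 2 males) were Sert Cre/+; Stat3 fl/+, and STAT3 KO mice (n = 8, 4 females and 4 males) were their littermates with Sert Cre/+; Stat3 fl/fl, on a C57 x 129 hybrid background. Cre is expressed from the gene of the serotonin transporter (SERT) in both groups, and controls too carry a floxed allele of Stat3, so neither group is wild type. In STAT3 KO mice both Stat3 alleles are floxed, and their deletion is directed at cells that express SERT. The paper states that a full loss of STAT3 could not be shown for each serotonergic cell. The libraries hold RNA of all cells of the dissected piece. The labels do not give the age of these animals, and the paper gives a range for all its mice at the onset of experiments, not at dissection.

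The output neuron of the cerebellar cortex is the Purkinje cell, a large inhibitory neuron whose dendrites receive the parallel fibres of the very small and very numerous granule cells. Bergmann glia, the astrocytes whose processes run alongside the Purkinje dendrites, make up a further cell type of the same layers. Purkinje cell bodies lie in a single row between the molecular layer and the granule layer, so the proportion of the cell types differs with the place and depth of a piece of cerebellum. The anterior lobules of the cerebellum lie directly behind and above the caudal midbrain. Each DR sample pooled squares with a side of 1.5 mm, cut beneath the aqueduct out of 4 frozen sections of 300 µm that spanned Bregma -4.0 to -5.2 mm.

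The levels of these genes over the 12 libraries fell into patterns. Pcp2, Ppp1r17, Gdf10 and Car8 were highest in the libraries STAT3 KO 16 and 10 and lower in STAT3 KO 14 and 7. They were raised less in control 3, at 5.5 times the median of the 12 libraries for Pcp2 and 1.25 to 1.77 times for the others. In the other 7 libraries they were near their lowest levels. Calb1 and Itpr1, with higher levels in all libraries, were also highest in STAT3 KO 16 and 10, and Itpr1 next in STAT3 KO 7 and 14, but control 3 did not stand out for either. Cbln3, Zic1 and Zic2 were high in STAT3 KO 16, control 3 and STAT3 KO 10, and at the level of the other libraries in STAT3 KO 14. Cbln1 was highest in control 3 and STAT3 KO 16 but not raised in STAT3 KO 10, 14 or 7. The numbers are the animals' numbers in the labels. None of the 10 genes differed between genotypes after correction for the number of genes tested.

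Between 24379588 and 29645210 reads were counted on genes per library, and levels are given as CPM, the count of a gene scaled to the total of its library. At this depth the smallest level taken as measurable, 3 counts, equals 0.101 to 0.123 CPM, which allows for counting error alone. Stat3 itself was read at 62.9 to 71.0 CPM in all 12 libraries. These counts are for the whole gene in the whole tissue and do not resolve the deleted exons. The 8 serotonergic marker genes were measured in every library, with a summed level between 1491 and 1872 CPM in the controls and between 1362 and 2028 CPM in the STAT3 KO group, and 0 of the 8 had r of at least 0.7 with Pcp2. The 3 lowest serotonergic sums were those of STAT3 KO 14 (1362 CPM), control 3 (1491 CPM) and STAT3 KO 10 (1532 CPM), all among the 5 libraries with the most Pcp2, while STAT3 KO 16 and 7, the other two, had 1729 and 1844 CPM. The part of this in the members' levels was not tested. In bulk tissue fewer cells of a type and less RNA per cell cannot be told apart.

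The stretches before the start sites are shown first for the members with a RefSeq promoter window (build GRCm38.p6), because Pcp2 and Gdf10 shared the first pattern and Cbln3 and Zic1 the second. Windows of 250 bases before a start were found for 4 of the 10 members, Pcp2 (4 starts), Gdf10, Cbln3 and Zic1. Each stretch is printed 5′ to 3′ on the gene's strand, without bases that GENCODE places in an exon of any gene, and capitals mark matches to the motifs AGGTCA, TTCNNNGAA or CATCTG on either strand.
Pcp2, chr8:3625607-3625778, minus strand: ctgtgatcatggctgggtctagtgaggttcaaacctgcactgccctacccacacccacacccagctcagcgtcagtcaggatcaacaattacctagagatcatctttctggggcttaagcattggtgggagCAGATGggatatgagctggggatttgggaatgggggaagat
Gdf10, chr14:33923337-33923586, plus strand: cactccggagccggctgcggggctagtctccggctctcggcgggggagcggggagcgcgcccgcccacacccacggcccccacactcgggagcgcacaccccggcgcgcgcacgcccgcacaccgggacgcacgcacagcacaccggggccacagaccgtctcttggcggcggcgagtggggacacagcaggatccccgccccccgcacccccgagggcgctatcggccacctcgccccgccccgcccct
Cbln3, chr14:55884393-55884506, minus strand: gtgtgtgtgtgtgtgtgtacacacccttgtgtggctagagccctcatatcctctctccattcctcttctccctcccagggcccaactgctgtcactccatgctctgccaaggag
Zic1, chr9:91365811-91366018, minus strand: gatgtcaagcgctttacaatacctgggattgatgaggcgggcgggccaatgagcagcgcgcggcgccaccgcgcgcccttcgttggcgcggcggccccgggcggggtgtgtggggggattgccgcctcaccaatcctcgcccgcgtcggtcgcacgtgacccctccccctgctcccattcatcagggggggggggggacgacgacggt

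AGGTCA, the half-site that nuclear receptors such as Rora bind, was found in 3 of the 4 whole windows of Pcp2 and in none of the windows of Gdf10, Cbln3 and Zic1. It is in 14% of all 32851 windows of this length. The windows of Pcp2 overlap, and 2 of the 3 matches are the same site. TTCNNNGAA, the form of a STAT site, is in 7.02% of all windows and in none of those of the 4 genes. CATCTG, an E-box of the kind bound by proneural factors, is in 14.4% of all windows and was found before 2 starts of Pcp2, as the same site in overlapping windows, where the capitals show its reverse complement. The AGGTCA sites of Pcp2 lie outside the printed stretch. The windows of Gdf10 and Zic1 held 35 and 27 CpG dinucleotides at a GC content of 78.8% and 66%, against 2 at 57.6% for Cbln3 and 0 to 2 for the windows of Pcp2. Base composition therefore did not separate the genes as their levels did.

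Pcp2 (Purkinje cell protein 2, a regulator of G protein signalling almost restricted to Purkinje cells and retinal bipolar cells) had the widest range of the 10 genes. It lies on chromosome 8 from 3623371 to 3625545 on the minus strand of GRCm38. Its level was 0.615, 0.18, 2.98 and 0.305 CPM in controls 13, 4, 3 and 11. In STAT3 KO mice the lowest library had 0.0675 CPM (2 counts, under the floor) and the highest, STAT3 KO 16, had 34.4 CPM. STAT3 KO 10 had 18.4, STAT3 KO 14 had 7.17 and STAT3 KO 7 had 6.94 CPM, and the other 4 STAT3 KO libraries had at most 0.468 CPM. Of the 8 STAT3 KO libraries, 4 were above the highest control and 2 below the lowest, so the groups overlapped. Over all libraries Pcp2 was therefore at 0.615 CPM or below in 7 libraries and spread from 2.98 to 34.4 CPM in the other 5. Pcp2 shares 941 exonic nucleotides with Pet100, a gene on the opposite strand, and the use of strand in counting is not given in the sources used here. Pet100 itself was read at 12.8 to 17.6 CPM in all libraries, at 14.9 CPM in STAT3 KO 16 and 13.5 CPM in STAT3 KO 10.

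Ppp1r17, an inhibitor of protein phosphatases that Purkinje cells express as a target of cGMP-dependent kinase, is on chromosome 6 from 56017497 to 56032689. It was at 1.93, 1.36, 4.31 and 2.02 CPM in controls 13, 4, 3 and 11, and at 2.06 to 27.2 CPM (median 4.10) in STAT3 KO mice. STAT3 KO 16, 10, 7 and 14 had 27.2, 17.0, 7.08 and 5.56 CPM, and each of these 4 was above the highest control, which was control 3.

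Car8, a carbonic anhydrase-like protein without enzyme activity that binds the IP3 receptor in Purkinje cells, is on chromosome 4 from 8143362 to 8239041. Controls 13, 4, 3 and 11 had 20.9, 19.5, 30.7 and 19.6 CPM, and STAT3 KO mice 15.5 to 209.8 CPM (median 39.6). The same 4 STAT3 KO libraries were above the highest control, with 209.8 CPM in STAT3 KO 16, 148 CPM in STAT3 KO 10, 62.0 CPM in STAT3 KO 7 and 57.3 CPM in STAT3 KO 14. Unlike Pcp2, Car8 was well measured in every library, with at least 434 counts.

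Gdf10, a ligand of the TGF-beta superfamily that in the cerebellum is known from Bergmann glia and not from Purkinje or granule cells, is on chromosome 14 from 33923587 to 33937983. It was at 1.39, 1.51, 2.39 and 1.26 CPM in controls 13, 4, 3 and 11 and at 1.41 to 15.1 CPM (median 3.34) in STAT3 KO mice. Its order differed from that of Pcp2 at the top. STAT3 KO 10 had 15.1 CPM and STAT3 KO 16 had 13.6 CPM, followed by STAT3 KO 14 with 5.12 and STAT3 KO 7 with 4.64 CPM.

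Calb1, the calcium buffer calbindin, and Itpr1, the IP3 receptor that releases calcium from internal stores, are abundant in Purkinje cells but are also used by many midbrain neurons. Calb1 (chromosome 4, 15881264 to 15908064) was at 50.2, 58.3, 56.3 and 56.9 CPM in controls 13, 4, 3 and 11 and at 49.8 to 158.8 CPM (median 65.4) in STAT3 KO mice. STAT3 KO 16 and 10 had 158.8 and 103.7 CPM, while STAT3 KO 14 had 61.7 CPM, less than STAT3 KO 5 with 69.1 CPM, a library that had only 0.317 CPM of Pcp2. Calb1 thus separated STAT3 KO 16 and 10 from the rest but not STAT3 KO 14 and 7. Itpr1 (chromosome 6, 108213096 to 108551109) was at 131, 202.9, 160.9 and 139 CPM in the controls, in the same order, and at 118.7 to 398 CPM (median 180.7) in STAT3 KO mice. STAT3 KO 16, 10, 7 and 14 had 398, 376, 235 and 221 CPM. Control 4, with very little Pcp2, came next with 202.9 CPM of Itpr1, and it is the library with by far the most forebrain excitatory RNA (a summed 406.9 CPM over 7 marker genes, against 39.7 to 115.6 CPM in the others). The part of those cells in its Itpr1 level was not tested. Small stretches of Itpr1's exons overlap non-coding genes on the opposite strand (181 nucleotides with Gm44101 and 108 with Gm44040).

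Cbln3 is the secreted cerebellin that granule cells make and assemble with Cbln1. It lies on chromosome 14 from 55878913 to 55884392 and was, besides Pcp2, the member with the widest range. Controls 13, 4, 3 and 11 had 2.99, 1.51, 37.8 and 2.90 CPM, so control 3 stood far above the other controls. STAT3 KO mice had 1.29 to 96.4 CPM with a median of 2.11 CPM, and of these libraries only STAT3 KO 16, with 96.4 CPM, was above control 3. STAT3 KO 10 had 25.0 CPM. STAT3 KO 14 and 7, both high in Pcp2, had 2.16 and 2.87 CPM of Cbln3, within the range of the libraries with little Pcp2.

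Zic1 and Zic2 are zinc finger transcription factors of granule cell precursors and mature granule cells, and are also known from the meninges and the dorsal midline. Zic1 (chromosome 9, 91358058 to 91365810) was at 7.71, 6.71, 18.3 and 5.80 CPM in controls 13, 4, 3 and 11 and at 5.14 to 49.6 CPM (median 6.40) in STAT3 KO mice. Zic2 (chromosome 14, 122475435 to 122479852) was at 8.53, 8.73, 14.5 and 6.10 CPM in the same controls and at 6.16 to 31.5 CPM (median 8.17) in STAT3 KO mice. For both genes STAT3 KO 16 was highest, with 49.6 and 31.5 CPM, and STAT3 KO 10 (20.9 and 15.3 CPM) was close to control 3. STAT3 KO 14 had 6.92 CPM of Zic1 and 8.34 CPM of Zic2, near the medians of the 12 libraries (6.82 and 8.44 CPM). Zic1 shares 60 exonic nucleotides with Zic4 on the opposite strand, a gene that was at 0.675 to 4.61 CPM.

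Cbln1, a cerebellin that organises the synapses of parallel fibres, is made by granule cells but also by neurons of the thalamus and brainstem. It lies on chromosome 8 from 87468405 to 87472609. Its levels were 42.1, 14.4, 76.5 and 43.0 CPM in controls 13, 4, 3 and 11 and 16.3 to 67.4 CPM (median 32) in STAT3 KO mice. Control 3 and STAT3 KO 16 were highest, as for Cbln3. STAT3 KO 10 had only 28.5 CPM, below the median of the 12 libraries (37.2 CPM), and STAT3 KO 14 had 21.5 CPM, while control 11, STAT3 KO 15 and STAT3 KO 6, with at most 0.305 CPM of Pcp2, had 43.0, 39.5 and 35.5 CPM. High and low Cbln1 was therefore found on both sides of the division that Pcp2 made.

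**Figure D1:**
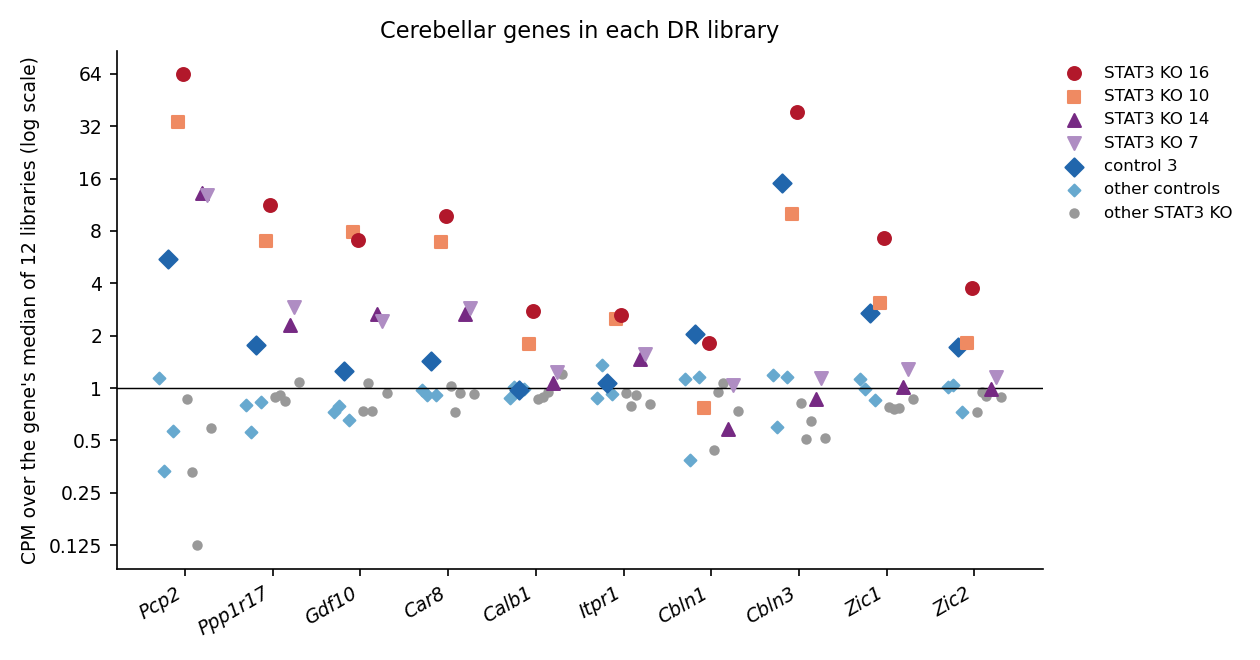
Level of each of the 10 genes in each of the 12 DR libraries, as CPM divided by the gene's median over the 12 libraries on a log scale, 1 point per library, with the 5 libraries highest in Pcp2 drawn large. STAT3 KO 16 reached 63.5 times the median for Pcp2 and 38.4 times for Cbln3, STAT3 KO 14 and 7 were raised for Pcp2 (13.2 and 12.8 times) but not for Cbln3 (0.859 and 1.14 times), and Cbln1 stayed within 0.387 and 2.06 times.

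Levels per length give an order among the genes. In the median library Cbln1, Calb1, Itpr1 and Car8 had 12.2, 11.9, 8.21 and 5.56 CPM per kilobase of exon. They were followed by Zic2 (2.93), Ppp1r17 (1.38), Zic1 (1.20), Cbln3 (0.516), Gdf10 (0.368) and Pcp2 (0.296 CPM per kilobase). Cbln1 and Calb1 are neighbours in this order whose ranges over libraries overlap widely. In STAT3 KO 16 the order was another one, led by Car8 (54.4 CPM per kilobase) and Calb1 (32.8), with Pcp2 (18.8) and Cbln3 (19.8) close to Itpr1 (21.7) and Gdf10 last (2.62).

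The levels above the median of the 12 libraries, expressed as a percentage of that of STAT3 KO 16, show which genes kept one proportion from library to library. In STAT3 KO 7 this was 18.9% for Pcp2, 18.8% for Ppp1r17, 21.5% for Car8 and 23.2% for Gdf10, and in STAT3 KO 14 it was 19.6%, 12.6%, 19.1% and 27.3%. For Cbln3, Zic1 and Zic2 it was 0.377%, 4.43% and 5.47% in STAT3 KO 7 and at most 0.236% in STAT3 KO 14. Control 3 showed the opposite balance, with 37.6%, 26.9% and 26.3% for Cbln3, Zic1 and Zic2 and 4.05% to 7.57% for Pcp2, Ppp1r17, Car8 and Gdf10. STAT3 KO 10 had 52.7% to 112.6% for these 4 genes and 24.0% to 32.9% for Cbln3, Zic1 and Zic2. The ratio of Cbln3 to Pcp2, both in CPM, was accordingly 12.7 in control 3, 2.80 in STAT3 KO 16, 1.36 in STAT3 KO 10, 0.413 in STAT3 KO 7 and 0.301 in STAT3 KO 14. In the other 7 libraries, where Pcp2 had only 2 to 15 counts, it ran from 4.11 (STAT3 KO 5) to 24 (STAT3 KO 15). The genes of the first and of the second pattern thus did not keep a fixed proportion across libraries.

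**Figure D2:**
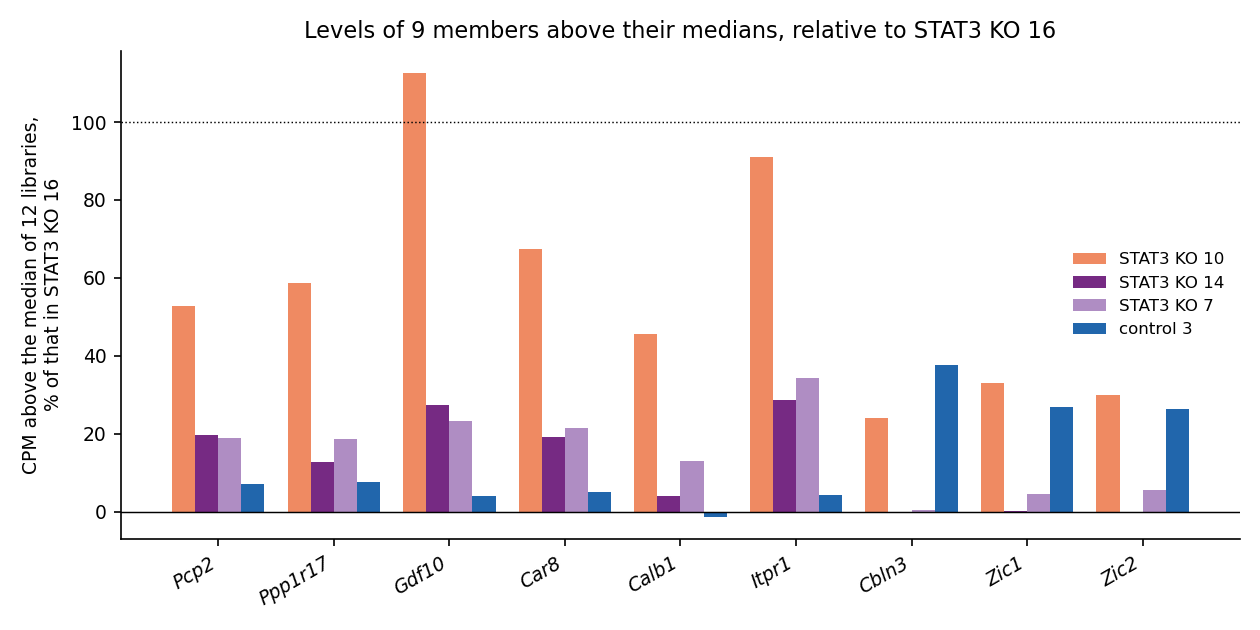
CPM above the gene's median of 12 libraries in STAT3 KO 10, 14 and 7 and control 3, as a percentage of the same difference in STAT3 KO 16 (dotted line at 100%), for 9 genes. Cbln1 is not drawn, because control 3 exceeded STAT3 KO 16 for it. The bars of STAT3 KO 14 and 7 reach 12.6% to 34.2% for Pcp2, Ppp1r17, Gdf10, Car8 and Itpr1, 4.05% and 13.04% for Calb1, and at most 5.47% for Cbln3, Zic1 and Zic2, where the bar of control 3 is 26.3% to 37.6%.

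Covariation over the 12 libraries was measured against Pcp2, the most Purkinje-restricted member, on log2(CPM + 0.1). Pearson's r was 0.954 for Car8, 0.947 for Ppp1r17, 0.929 for Gdf10, 0.876 for Itpr1, 0.83 for Zic1, 0.788 for Zic2, 0.785 for Calb1, 0.773 for Cbln3 and 0.325 for Cbln1. For the first 8 the permutation p was at most 0.00464 (100000 permutations) and at most 0.00522 after adjustment over the 9 genes, and for Cbln1 it was 0.3. Spearman's rho was 0.916 for Car8, 0.881 for Zic1, 0.783 for Ppp1r17, 0.776 for Itpr1, 0.755 for Cbln3, 0.706 for Gdf10, 0.678 for Zic2, 0.615 for Calb1 and 0.189 for Cbln1, with adjusted permutation p of at most 0.042 for the first 8 and 0.558 for Cbln1. So 8 of the 9 genes had r of at least 0.7, where 1.31% of all genes tested did. The members were chosen with earlier results of these data known, so these values describe them and are no independent test.

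The values of r were computed again without the libraries of extreme level and within the 7 libraries with little Pcp2. Without STAT3 KO 16 and 10, the libraries farthest from the median of Pcp2, r was 0.941 for Car8, 0.919 for Ppp1r17, 0.879 for Gdf10 and 0.709 for Itpr1. It was 0.612 for Zic1, 0.524 for Zic2, 0.478 for Cbln3, 0.470 for Calb1 and 0.195 for Cbln1, so that for these the relation rested in part on the 2 libraries. Within the 7 libraries, where Pcp2 had 2 to 15 counts, r was 0.604 for Cbln3, 0.519 for Zic1 and 0.456 for Car8, and between -0.229 and 0.17 for the other 6. No correlation was computed within the other 5 libraries.

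**Figure D3:**
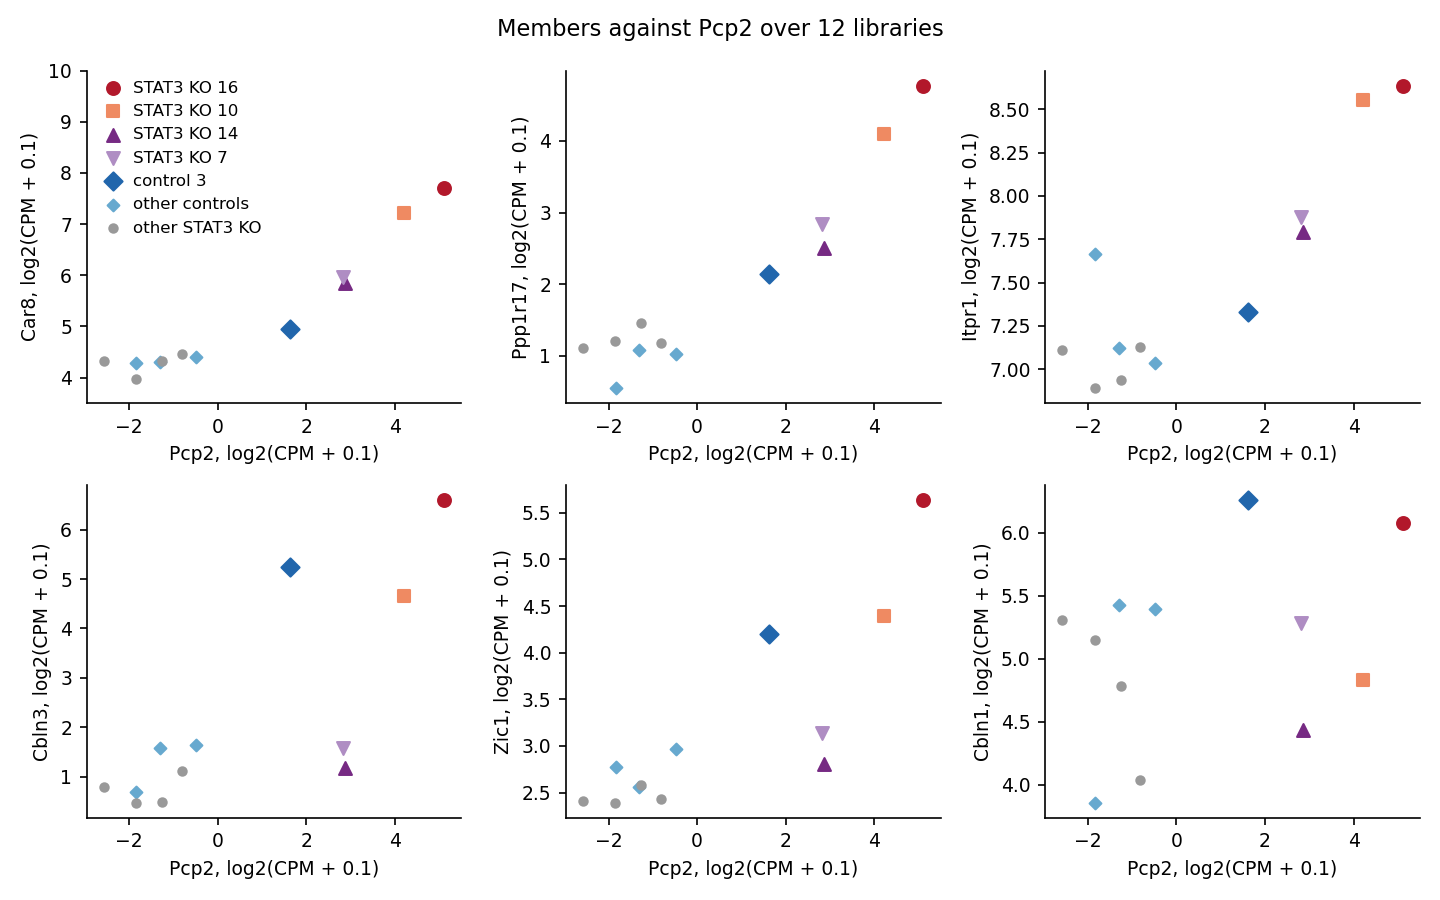
Car8, Ppp1r17, Itpr1, Cbln3, Zic1 and Cbln1 (y axes) against Pcp2 (x axes) over 12 libraries, all as log2(CPM + 0.1), 1 point per library. Car8 and Ppp1r17 climb with Pcp2 through control 3, STAT3 KO 7 and 14, STAT3 KO 10 and STAT3 KO 16 (r = 0.954 and 0.947), Cbln3 and Zic1 are high only in control 3, STAT3 KO 10 and STAT3 KO 16, and Cbln1 shows no such order (r = 0.325).

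With Cbln3 in place of Pcp2, a comparison chosen after seeing the data, r was 0.969 for Zic1 and 0.914 for Zic2 (permutation p = 0.00011 and 0.00084), and without STAT3 KO 16 and control 3 it was 0.939 and 0.772. For the other members r was 0.628 (Cbln1, permutation p = 0.03, also after adjustment over the 9 genes) to 0.802 (Ppp1r17). Spearman's rho was 0.825 for Zic1 and 0.615 for Zic2, with permutation p of 0.0149 and 0.0569 after adjustment over the 9 genes. It was 0.755 for Pcp2, 0.748 for Car8, 0.657 for Cbln1 (permutation p = 0.024, adjusted 0.054) and 0.629 for Itpr1, and lower for Ppp1r17 (0.455), Calb1 (0.343) and Gdf10 (0.329). Without STAT3 KO 16 and control 3 r was 0.126 for Cbln1 and between 0.73 (Pcp2) and 0.824 (Car8) for the genes of the first pattern, Calb1 and Itpr1. Zic2 was then no closer to Cbln3 than these genes, while Zic1 was. Of all genes tested, 1.35% had r of at least 0.7 with Cbln3. Among the members, the closest pairs were Ppp1r17 with Car8 (r = 0.978) and Zic1 with Zic2 (r = 0.977), each within one of the patterns, while Itpr1 and Cbln1 were the least alike (r = 0.103).

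The 10 genes outside the members most like Pcp2 over the 12 libraries were Nrk (r = 0.965), Mbd4, Sbk1, Homer3, Tfap2a, Kansl1l, Asgr1, Rgs8, Arhgef33 and Hes3 (0.893). Homer3, a scaffold of glutamate receptor synapses, and Rgs8, a regulator of G protein signalling, are established Purkinje cell genes. Homer3 was at 44.3 CPM in STAT3 KO 16, 36.1 in STAT3 KO 10, 21.1 in STAT3 KO 14 and 18.6 in STAT3 KO 7, against 11.3 to 15.9 CPM in the other 8 libraries. Rgs8 was at 273.5, 248, 191 and 197.9 CPM in the same 4 and at 139 to 169.8 CPM in the other 8. The genes most like Cbln3 were Il16 (r = 0.980), Gabra6 (0.979) and Fat2 (0.97). Gabra6, a GABA-A receptor subunit almost restricted to granule cells, was at 66.6 CPM in STAT3 KO 16, 16.6 in control 3 and 11.2 in STAT3 KO 10 and at most at 0.954 CPM in the other 9 libraries, among them STAT3 KO 14 (0.549) and 7 (0.92). Fat2, a cadherin of granule cells, was at 54.8, 18.6 and 17.9 CPM in the same 3 libraries and at most at 1.66 CPM in the others. The gene most like Cbln1 was Gm2694 (r = 0.940), a non-coding gene that overlaps the Cbln1 locus on the opposite strand without sharing exonic bases.

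Other known genes of these cells behaved less uniformly. Of 12 further Purkinje cell genes, 5 had r of at least 0.7 with Pcp2, among them Rgs8 and Homer3. Foxp2 and Rora, transcription factors that Purkinje cells share with midbrain neurons, had r of -0.519 and 0.659, at 28.5 and 72.1 CPM in the median library. Of 12 further granule cell genes, 8 had r of at least 0.7 with Cbln3 and 4 with Pcp2. Neurod1, a transcription factor of granule neurons, was at 46.6 CPM in STAT3 KO 16, 16.4 in control 3 and 14.2 in STAT3 KO 10, against 3.77 to 6.10 CPM in the other 9 libraries. Barhl1, Etv1 and Mab21l1 followed neither pattern, with r of 0.22, 0.517 and 0.455 with Cbln3. Of 7 genes of Bergmann glia and hindbrain astrocytes, Hopx had r of 0.847 with Pcp2 and the other 6 at most 0.587, among them the glutamate transporter Slc1a3 (0.575). Gdf10 was therefore the clearest of the glial genes.

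Of 10 genes of the same families as the members, Zic4 (r = 0.765) and Zic5 (0.835) had r of at least 0.7 with Pcp2, and of 0.718 and 0.895 with Cbln3. They were at 1.69 and 0.322 CPM in the median library, and at 2.72 and 2.67 times these medians in STAT3 KO 16. The other 8 had r below 0.7 with either gene. The cerebellins Cbln2 and Cbln4 had r of -0.762 and -0.384, and STAT3 KO 16 had 0.882 and 1.0 times their medians. The calcium-binding relative Calb2 was at 1.15 times its median in STAT3 KO 16, and the IP3 receptors Itpr2 and Itpr3 at 0.981 and 1.19 times.

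The marker genes of other tissue near the DR, and of the forebrain, that could be tested had r below 0.7 with Pcp2 and with Cbln3. Of 7 genes of the locus coeruleus and tegmental cholinergic neurons, 6 of which could be tested, 0 had r of at least 0.7 with either gene, and their summed level lay between 103 and 161.7 CPM for controls and between 68.1 and 243 CPM for the STAT3 KO group. The noradrenergic enzyme Dbh was highest in STAT3 KO 14, 10 and 7 (24.7, 15.2 and 9.45 CPM), but was at 6.43 CPM in STAT3 KO 16 and 0.589 CPM in control 3. The 9 meningeal fibroblast genes, measured because the meninges express Zic genes, summed to 60.8 to 84.2 CPM over the controls and 67.6 to 93.8 CPM over the STAT3 KO group, with 0 of 9 past r of 0.7. The meningeal sum was highest in STAT3 KO 10 (93.8 CPM) and 16 (90.9 CPM), both high in Zic1 and Zic2, followed by STAT3 KO 5 (85.7 CPM), which was not, and by control 3, the highest control, which was. The 7 dorsal midbrain genes summed to 41.6 to 61.3 and 41.7 to 61.0 CPM. Of the 7 choroid plexus genes, 6 of which could be tested (16.7 to 23.6 CPM in controls, 19.5 to 240.5 CPM in STAT3 KO mice), Ttr was at 203.8 CPM in STAT3 KO 16 and 213 CPM in STAT3 KO 8, and at most at 3.64 CPM elsewhere. STAT3 KO 8 had 0.468 CPM of Pcp2 and 2.05 CPM of Cbln3. Kcnj13, another choroid plexus gene, was at 0 in 5 libraries, and no other marker of these lists was at 0 in any library. The part of these tissues in the members' levels was not tested.

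The comparison of genotypes asked whether the members differed between STAT3 KO mice and controls. Of the 10 members, 0 had an adjusted p below 0.05 in edgeR's quasi-likelihood test, as 0% of all 15453 genes had. The paper reported differentially expressed genes from its own DESeq2 analysis, so this share depends on the analysis. At an unadjusted p below 0.05 there were 4 members, all higher in STAT3 KO mice, where 7.66% of all genes passed in either direction and 3.61% were higher. These were Pcp2, Ppp1r17, Gdf10 and Car8, the genes of the first pattern. The count depended on single libraries, being 0 without control 13 or control 11, 1 without STAT3 KO 10 or STAT3 KO 16 and 2 without control 4. They are not independent of each other, since the same libraries carry all of them. Nor did any member pass an exact permutation test of mean log2(CPM + 0.1) over all 495 divisions of the libraries, in which 7.22% of all genes had p below 0.05 and the smallest possible p is 0.00202. The groups did not overlap for 0 of the 10 members, where 0.492% of all genes tested had groups without overlap.

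The mean level of Pcp2 was 1.02 ± 1.32 CPM over the controls (SD, n = 4), against 8.50 ± 12.2 CPM over the STAT3 KO group (SD, n = 8). On the log2 scale this was a difference of 3.01 (standard error 1.34, edgeR p = 0.0398, adjusted p = 0.646, exact permutation p = 0.337). Without control 3 the log2 fold change became 4.53, and without STAT3 KO 16 it was 2.20. For Car8 the means were 22.7 ± 5.38 and 69.3 ± 71.9 CPM, and the log2 difference was 1.59 with a standard error of 0.67 (edgeR adjusted p = 0.62). Ppp1r17 and Gdf10 had log2 fold changes of 1.75 each (standard errors 0.74 and 0.68, edgeR adjusted p = 0.62 and 0.615), from 2.40 ± 1.30 to 8.24 ± 9.16 CPM and from 1.64 ± 0.51 to 5.65 ± 5.59 CPM. In the STAT3 KO group the SD exceeded the mean for Pcp2, Ppp1r17 and Car8, and was just below the mean for Gdf10.

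For Calb1 and Itpr1 the log2 fold changes were 0.46 (95% confidence interval -0.10 to 1.02) and 0.44 (-0.23 to 1.11). Both rested in part on single libraries, since without STAT3 KO 16 they were 0.23 and 0.26, and without STAT3 KO 10 that of Itpr1 was 0.28. Cbln3 had means of 11.3 ± 17.7 and 16.6 ± 33.3 CPM in controls and STAT3 KO mice, with a log2 fold change of 0.51 whose interval ran from -2.02 to 3.05. Its direction rested on single libraries. It was -1.15 without STAT3 KO 16 and 2.73 without control 3. Zic1 and Zic2 had log2 fold changes of 0.45 (-0.85 to 1.76) and 0.29 (-0.54 to 1.12), which became -0.24 and -0.10 without STAT3 KO 16. Cbln1 was the only member lower in STAT3 KO mice, with 44.0 ± 25.4 against 34.4 ± 15.6 CPM and a log2 fold change of -0.38 (-1.14 to 0.38), which was 0.04 without control 3. The adjusted p of these 6 genes was 0.734 or more in edgeR's test.

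**Figure D4:**
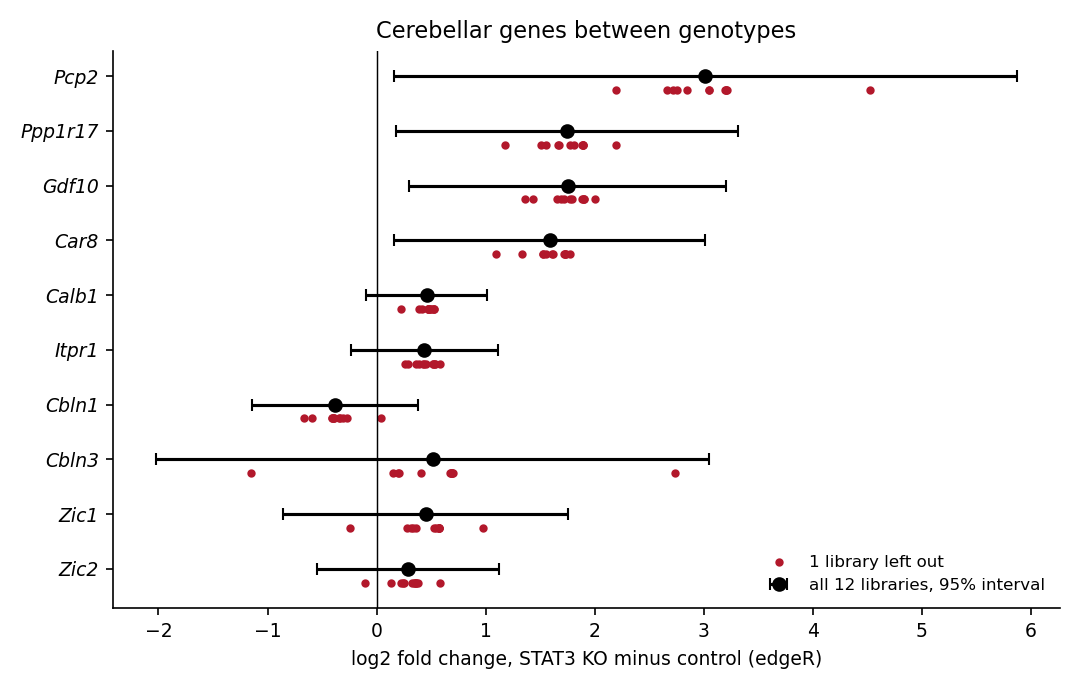
Log2 fold change of each member between STAT3 KO mice (n = 8) and controls (n = 4) from edgeR, with its 95% confidence interval (black), and the values when each library was left out in turn (red). The intervals of Pcp2, Ppp1r17, Gdf10 and Car8 lie above 0 before adjustment, those of the other 6 cross 0, and for Cbln3 the values with 1 library left out run from -1.15 to 2.73.

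When the 5 libraries highest in Pcp2 were left out (an alternative chosen after seeing the data, and chosen by these genes, so that it is a description only), 3 controls and 4 STAT3 KO mice remained. The log2 fold changes of Car8 and Itpr1 were then -0.07 and -0.30, those of Cbln3, Zic1, Zic2 and Cbln1 were -0.67, -0.34, -0.11 and -0.17, those of Ppp1r17, Gdf10 and Calb1 were 0.34, 0.24 and 0.0042, and Pcp2 no longer passed the filter on low counts. Without STAT3 KO 16 and 10 alone, a choice made in the same way that kept control 3, that of Pcp2 was 1.27 and that of Cbln3 -2.61.

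The median log2 fold change was 0.49 for the 10 members and -0.0011 for all genes tested. Beside it, the 12 further Purkinje cell genes had a median of 0.18 (10 higher in STAT3 KO mice and 2 lower), the 12 further granule cell genes 0.15 (9 and 3), the 7 glial genes 0.11 (4 and 3) and the 10 family genes 0.01 (5 and 5), and 0 genes of these lists had an adjusted p below 0.05 in edgeR's test. Of 6 lists of other tissue, 2 had medians farther from 0 than the members, 0.59 for 6 choroid plexus genes (6 higher and 0 lower) and -1.13 for 7 forebrain excitatory genes (0 and 7). The other 4 had medians nearer 0, with 0.15 for the locus coeruleus and cholinergic genes, 0.05 for the dorsal midbrain, 0.03 for the serotonergic and -0.04 for the meningeal genes. Control 4 stood apart for the forebrain genes, with a summed 406.9 CPM. The other controls had 47.1 to 72.1 CPM and the STAT3 KO mice 39.7 to 115.6 CPM.

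Levels were also compared within each sex. The mean level of Pcp2 was 1.80 ± 1.67 CPM in female controls (n = 2) and 15.0 ± 14.9 CPM in female STAT3 KO mice (n = 4). In males it was 0.242 ± 0.0888 CPM (n = 2) and 1.97 ± 3.47 CPM (n = 4). STAT3 KO 16, 10 and 7 and control 3 were females and STAT3 KO 14 was a male, so that 4 of the 5 libraries with much Pcp2 came from females. The mean of the STAT3 KO group was above that of controls in both sexes for Pcp2, Ppp1r17, Gdf10 and Car8. Among males this rested on STAT3 KO 14 for Pcp2 and Car8. Without it, a choice made after seeing the data, the other 3 STAT3 KO males had means of 0.238 ± 0.207 CPM of Pcp2 and 19.1 ± 3.30 CPM of Car8, where male controls had 0.242 and 19.6 CPM. For Ppp1r17 and Gdf10 the means were 2.15 ± 0.0800 and 1.62 ± 0.361 CPM without it, where male controls had 1.69 and 1.38 CPM. Cbln3 was at 20.4 ± 24.6 and 31.4 ± 44.7 CPM in female controls and STAT3 KO mice and at 2.20 ± 0.983 and 1.78 ± 0.404 CPM in males, where the highest library had 2.90 CPM. The interaction of genotype and sex had an adjusted p below 0.05 for 0 of the 10 members and 0 genes in all (edgeR). The smallest unadjusted p was that of Calb1, for which the log2 fold change of males minus that of females was -0.99 (standard error 0.36, edgeR adjusted p = 0.907), from 53.2 ± 4.31 to 100.6 ± 41.9 CPM in females and from 57.6 ± 0.944 to 54.3 ± 5.32 CPM in males.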

How the data were processed

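RNA of the DR was sequenced by the authors from 12 mice, with 1 library per animal and single-end reads, mapped with STAR 2.5.0b to mm10. The deposited files hold raw counts per gene symbol, without normalisation. The counter, annotation and use of strand are not given in the sources used here. Reads listed as lying in no gene (13.4% to 15.2%) or in several (0.507% to 0.562%) were left out of totals and tests. Groups, sex and animal numbers come from the labels. Over 66 pairs, libraries differed by more than counting noise, so none was a copy. P-values measure the spread between these animals.

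Counts were tested with edgeR 4.0.16 (R 4.3.3): two-sided quasi-likelihood test, TMM normalisation, filterByExpr by genotype, Benjamini-Hochberg adjustment over 15453 genes, threshold 0.05. Standard errors and confidence intervals were computed back from the log2 fold change and the F statistic of this test. DESeq2 1.42.0 was an alternative. CPM, correlations and permutation tests used Python 3.11.15 (numpy 2.4.6, scipy 1.17.1), with 0.1 CPM added before logarithms, and figures matplotlib 3.10.9. Scripts were tested on simulated counts. Positions and exon lengths are those of GENCODE vM21, counted from 1, and promoters those of RefSeq for GRCm38.p6. A motif was searched on both strands.

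The members, and the lists of other marker genes written from general knowledge, were chosen with earlier results of these data known. Some genes of the lists are counted but not reported here by name. The text names the 10 members, genes of the cerebellar and family lists, genes of other lists where a result turns on them, the 10 genes most like Pcp2, and Stat3. Pet100, Gm44101, Gm44040, Gm2694, Il16 and the genes of other lists were named after their values were seen. Alternatives were DESeq2, RLE normalisation, no filter beyond 1 count, sex as a covariate, each library left out, other pseudocounts and scales, values centred on genotype, and 4 settings and means without STAT3 KO 14 chosen after seeing the data.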

Additional observations from a re-analysis of the deposited data

Results flagged for a closer look

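One value was far from the others of its group: Car8 in control 3 (30.7 CPM, where the other 3 controls lay between 19.5 and 20.9 CPM), whose gap to the nearest control was 0.849 of the range of the 4 controls on the log2 scale, past Dixon's 95% limit. Of 20 groups of libraries examined, chance alone is expected to give about 1 such value. Control 3 was also the highest control for Pcp2, Ppp1r17, Gdf10, Cbln3, Zic1, Zic2 and Cbln1.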

How the results depend on the processing

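The count of members with an adjusted p below 0.05 was 0 under all 18 alternatives. DESeq2 gave an adjusted p to Itpr1 only (0.615) and no p at all to Cbln3, and called 2 genes in all, and edgeR called 1 gene without control 4 (0 to 1 over all libraries left out). Of the 10 members, 4 had an unadjusted p below 0.05, 0 to 4 with 1 library left out (0 without control 13 or control 11, 1, Gdf10, without STAT3 KO 10 or STAT3 KO 16, and 2 without control 4, Gdf10 and Cbln1, the latter lower in STAT3 KO mice). Without STAT3 KO 10 and 16 there were 2, and without the 5 libraries highest in Pcp2 also 2. In both cases these were not of the 4 but Cbln3 and Zic1, both lower in STAT3 KO mice (edgeR adjusted p = 0.922 and 0.9996). Both settings left out libraries for the members' own levels, and the first kept control 3, which was high in Cbln3 and Zic1. These counts are therefore a description only. The 8 members with r of at least 0.7 became 4 without the 2 libraries farthest from the median of Pcp2, 5 without STAT3 KO 16 (5 to 8 with 1 library left out) and 0 within the 7 libraries lowest in Pcp2.

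Directions turned as follows. With DESeq2 the log2 fold change was -1.15 for Cbln3 and -0.24 for Zic1, the members for which DESeq2 replaced the count of STAT3 KO 16. With 1 library left out it ran from -1.15 to 2.73 for Cbln3, -0.24 to 0.98 for Zic1, -0.10 to 0.58 for Zic2 and -0.67 to 0.037 for Cbln1. Without STAT3 KO 10 and 16 it was -2.61 for Cbln3, -0.66 for Zic1 and -0.28 for Zic2. Without the 5 libraries highest in Pcp2 it was -0.071 for Car8, -0.30 for Itpr1, -0.67 for Cbln3, -0.34 for Zic1 and -0.11 for Zic2. Within the 7 other libraries r with Pcp2 was -0.23 for Gdf10, -0.18 for Calb1, -0.20 for Itpr1, -0.059 for Cbln1 and -0.22 for Zic2. Other causes were not tested. No pairing by litter was possible, because the labels used here give animal numbers but no litters. At counts of 2 to 15, depth limits Pcp2 in the 7 libraries.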
